A study of Mus musculus with 12 samples.

Results

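Glycolysis splits glucose into pyruvate in the cytosol and yields ATP without oxygen. Cells regulate it mainly at glucose uptake, at the hexokinase and phosphofructokinase steps, and at the fate of pyruvate, which either enters mitochondria or is reduced to lactate. In the testis, Sertoli cells are known to supply lactate to differentiating germ cells, and cultured spermatogonial stem cells are known for strong glycolysis. The transcription factor HIF, which accumulates when oxygen is low, and MYC family factors are textbook activators of many genes of the pathway.

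The 10 genes described here encode the glucose transporters Slc2a1 and Slc2a3, the hexokinases Hk1 and Hk2, the phosphofructokinase Pfkp, and the enzymes Aldoa, Pgk1, Eno1, Pkm and Ldha. They were taken by symbol as a named set of the pathway, and by Entrez gene ID where the gene lists differ, and are 10 of the 31675 genes counted in every library. All 10 were found in all 12 libraries, with 15 to 2137 counts each, and all passed the filter on low counts in every comparison.

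The libraries were made by SC3-seq, which reads the 3′ ends of amplified cDNA, so levels are compared between libraries and not between genes. Germline stem cells (GSCs), a culture model of spermatogonial stem cells, carried the transgenes Acrosin-EGFP and beta-Actin-EGFP in every group and were Stag3 KO line 1 (KO1), Stag3 KO line 2 (KO2) or WT. The product of Stag3 is a subunit of cohesin with a well known role in meiosis, and the study asks what STAG3-cohesin does in the male germline. Germ cells from testis came from mice of genotype Vasa-RFPTg/0 at embryonic days 16 (E16) and 17 (E17) and postnatal day 7 (P7), with no change to Stag3 named in the labels. Each of the 6 groups had 2 libraries. The labels do not say how the knockouts were made, whether a line is a single clone, how germ cells were isolated, or whether the 2 libraries of a group came from separate cultures or animals, and the spread behind every p-value is that of these libraries, which may be technical.

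Total counts ran from 1938644 to 4596607 per library, and a level is a gene's share of the reads on non-mitochondrial genes, per 1000000 (RPM). Stag3 itself was read at 295 and 304 RPM in KO1 and at 137 and 152 RPM in KO2, against 385 and 420 RPM in WT GSCs. Reads from a 3′ end cannot check a knockout whose change lies elsewhere in the gene. The 8 germ cell markers examined were present in every library, at a summed 2622 to 4086 RPM. Markers of other testis cells were present as well. The 7 erythroid markers summed to 93.0 to 273 RPM in fetal libraries, 12.5 to 82.5 RPM at P7 and 0 to 0.272 RPM in GSCs, where all globin genes on the list were at 0. The 6 endothelial markers summed to 128 to 164 RPM in fetal libraries, 51.6 RPM in both P7 libraries, and 40.5 to 50.6 RPM in knockout GSCs, against 33.1 and 37.6 RPM in WT GSCs. The 10 fibroblast markers summed to 409 to 651 RPM in fetal libraries, 379 to 398 RPM at P7, and 219.5 to 237.8 RPM in knockout GSCs, against 256 and 261 RPM in WT GSCs. The 6 peritubular markers summed to 118 to 166 RPM in fetal libraries, 117 to 130 RPM at P7, and 19.7 to 27.1 RPM in knockout GSCs, against 33.5 and 42.6 RPM in WT GSCs. These 3 sums thus did not overlap between the knockout and WT GSCs. The 13 Sertoli markers summed to 428 to 553 RPM in fetal libraries, 350 to 375 RPM at P7 and 368 to 443 RPM in GSCs. Of these markers, Amh was at 0 in every library of the series, and Cst9, Rhox8 and Fshr were at 0 in all GSC libraries. The part of other cells in the differences below was not tested, and in bulk RNA fewer cells of a type and less RNA per cell cannot be told apart.

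The promoter stretches of 3 genes are shown. They were picked both for a clear change in the knockouts or at P7 and for holding the letters ACGTG, the core of the element that HIF binds. Aldoa, Pgk1 and Pkm also hold these letters before a start, while Hk1, Pfkp and Eno1 hold none before any listed start. Ldha has another listed start, and the window before it does not hold them. The choice therefore does not show that the letters and the changes go together. The sequences are those of RefSeq on build GRCm38.p6, 5′ to 3′ on the strand of the gene, and end at or just before its annotated start. Capitals mark ACGTG on either strand, which reads as CACGT on the other strand. Where a pair of such matches overlaps, the capitals spell CACGTG, the E-box that MYC family factors bind. The stretches are Slc2a1 at chr4:119108495-119108730 on the plus strand, Hk2 at chr6:82774455-82774704 on the minus strand, and Ldha at chr7:46845554-46845803 on the plus strand.
Slc2a1: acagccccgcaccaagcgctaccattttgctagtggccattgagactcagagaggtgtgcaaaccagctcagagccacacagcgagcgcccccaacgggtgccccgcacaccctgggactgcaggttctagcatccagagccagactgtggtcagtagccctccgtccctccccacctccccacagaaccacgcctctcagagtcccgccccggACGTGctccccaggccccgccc
Hk2: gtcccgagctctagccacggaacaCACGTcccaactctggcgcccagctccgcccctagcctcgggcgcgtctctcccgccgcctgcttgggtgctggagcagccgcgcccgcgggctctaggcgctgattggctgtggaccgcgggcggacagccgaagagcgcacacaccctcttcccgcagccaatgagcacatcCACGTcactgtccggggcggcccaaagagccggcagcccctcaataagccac
Ldha: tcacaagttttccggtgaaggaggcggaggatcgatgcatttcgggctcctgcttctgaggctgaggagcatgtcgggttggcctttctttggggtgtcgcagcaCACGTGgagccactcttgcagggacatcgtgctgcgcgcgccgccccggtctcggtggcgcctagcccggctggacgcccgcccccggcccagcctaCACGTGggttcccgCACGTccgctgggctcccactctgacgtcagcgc

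Slc2a1 had 1 such place, which begins 36 bases before the start. Hk2 had 2, at 226 and 52 bases before the start. Ldha had 3, at 145, 48 and 34 bases before the start, and the first 2 of these were the full E-box. GENCODE places the last 20 bases of the Slc2a1 stretch in an annotated exon. Of the 10 genes, all but Slc2a3, or 9, were matched in the RefSeq promoter table, with 16 start sites between them. ACGTG was in the 250 bases before 7 of the 16 starts, against 16.6% of all 32851 promoters in the table, and 1 Aldoa site was counted at 2 starts whose windows overlap. GCGTG on either strand, the other form of the HIF core, was in 7 of the 16, against 28.2% of all promoters, and 2 Eno1 sites were likewise counted at 2 starts. Hk1, Pfkp and Eno1, which lack ACGTG, each held GCGTG before a start. CACGTG was in 1 of the 16, against 6.02% of all promoters, and the Sp1-type letters GGGCGG were in 10 of the 16, against 32.7%. A match is a description of letters and not a bound site, and the absence of one says only that the letters are not in this window.

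In the Stag3 knockout GSCs the glucose transporter gene Slc2a1 and the enolase gene Eno1 were lower in both lines, and Ldha was higher in the average of the lines. With both lines averaged, 5 of the 10 genes passed the threshold against WT, with 1 higher and 4 lower at an adjusted p of 0.05 (Benjamini-Hochberg method, quasi-likelihood test of edgeR). Across all 11890 genes tested, 19.2% passed, 8.64% higher and 10.6% lower. The median log2 fold change of the 10 genes was -0.17, and that of all genes tested was 0.00. Without KO2 replicate 2, 3 of the 10 genes passed.

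**Figure D1:**
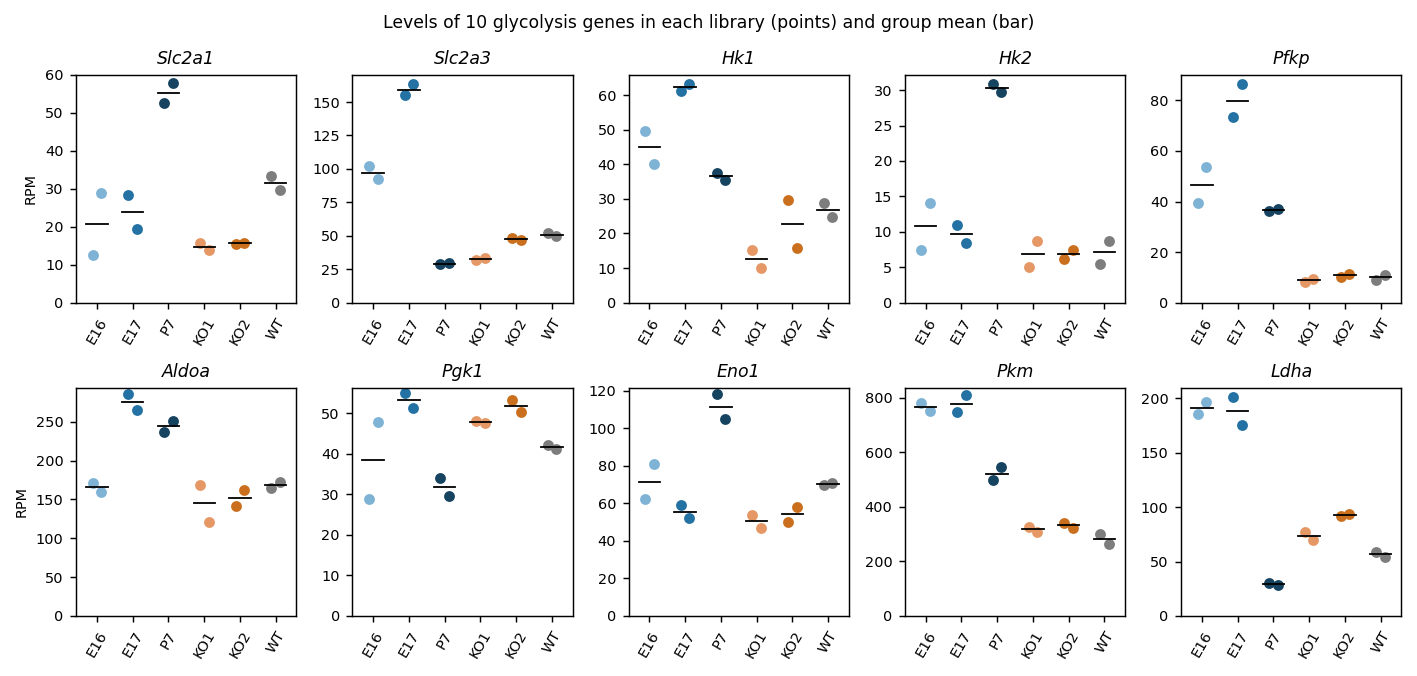
RPM of each of the 10 genes (vertical axis, from 0) in the libraries of E16, E17 and P7 germ cells and of KO1, KO2 and WT GSCs (horizontal axis). Points are libraries and bars are means of 2 libraries, and the KO1 and KO2 points of Slc2a1, between 14.0 and 15.8 RPM, lie below both WT points, at 29.7 and 33.2 RPM.

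Slc2a1 encodes GLUT1, the broadly expressed glucose transporter. It was at 15.6 and 14.0 RPM in KO1 and at 15.4 and 15.8 RPM in KO2, against 33.2 and 29.7 RPM in WT. All 4 knockout libraries lay below both WT libraries and close to one another. The log2 fold change was -1.13 ± 0.24 (SE) in KO1, with an adjusted p of 0.00021, and -1.06 ± 0.23 in KO2, with an adjusted p of 0.0003. Slc2a1 passed the threshold in both lines under every alternative fit that was run.

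Slc2a3 encodes GLUT3, a transporter with high affinity for glucose. It was at 31.8 and 33.5 RPM in KO1 and at 48.6 and 47.2 RPM in KO2, against 51.7 and 49.8 RPM in WT. KO1 stood apart from WT by more than its spread, while the KO2 libraries were just under WT. The fall in KO1 was -0.69 ± 0.17 on the log2 scale (adjusted p = 0.00222), and the KO2 value was -0.13 ± 0.16 (adjusted p = 0.631). With both lines averaged it was -0.41 ± 0.14 (adjusted p = 0.0273). That averaged call was lost without WT replicate 1 (-0.37), KO1 replicate 1 (-0.39), KO2 replicate 1 (-0.43) or KO2 replicate 2 (-0.41), with adjusted p of 0.0525 to 0.145, and in DESeq2 (-0.42, adjusted p = 0.14).

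Hexokinases phosphorylate glucose and so keep it in the cell. Hk1 was at 15.3 and 10.1 RPM in KO1 and at 29.7 and 15.8 RPM in KO2, against 28.9 and 24.7 RPM in WT. The KO1 libraries were both below WT, and the KO2 libraries lay on either side of it. In KO1, Hk1 had a log2 fold change of -1.10 ± 0.26 (adjusted p = 0.00101), and its KO2 value was -0.28 ± 0.23 (adjusted p = 0.461). Without KO1 replicate 2 the KO1 value was -0.85 and lost its call (adjusted p = 0.0608). The average of both lines was -0.69 ± 0.21 (adjusted p = 0.0101). It lost its call without WT replicate 1 (-0.56, adjusted p = 0.108), KO1 replicate 2 (-0.56, adjusted p = 0.0576) or KO2 replicate 2 (-0.51, adjusted p = 0.0986), and in DESeq2 (adjusted p = 0.132). Hk2, the isoform typical of muscle and tumour cells, was at 5.0 to 8.73 RPM in the knockouts and at 5.45 and 8.72 RPM in WT, and the 95% interval of its log2 fold change ran from -0.93 to 0.69 for KO1 and, for KO2, from -0.89 to 0.69.

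Of the 5 members between hexokinase and pyruvate, Eno1 alone passed the threshold. Eno1 encodes the enolase found in most tissues. It was at 53.6 and 47.1 RPM in KO1 and at 50.2 and 58.0 RPM in KO2, against 70.0 and 70.8 RPM in WT. No knockout library reached the WT level. KO1 had a log2 fold change of -0.53 ± 0.15 (adjusted p = 0.00964) and KO2 one of -0.43 ± 0.15 (adjusted p = 0.0335). The KO1 call was lost without KO1 replicate 2 (-0.44, adjusted p = 0.155), and the KO2 call without WT replicate 1 (-0.42), KO2 replicate 1 (-0.34) or KO2 replicate 2 (-0.54), with adjusted p of 0.0696 to 0.312. The average of both lines, -0.48 ± 0.13 (adjusted p = 0.00324), passed under every alternative.

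Pfkp encodes a subunit of phosphofructokinase, the committed step of the pathway, Aldoa the aldolase that splits fructose bisphosphate, Pgk1 the first kinase to yield ATP, and Pkm pyruvate kinase. None of these 4 passed the threshold in either line. Their log2 fold changes in KO1 were -0.23, -0.26, 0.15 and 0.12, and in KO2 they were 0.07, -0.20, 0.26 and 0.18, in the same order. The 95% intervals were widest for Pfkp, from -0.91 to 0.44 for KO1 and, for KO2, from -0.58 to 0.71. Without KO1 replicate 1, Aldoa was lower in KO1 (-0.53, adjusted p = 0.0082) and in the average of both lines (-0.36, adjusted p = 0.00689). Without WT replicate 1, Pkm was higher in KO2 (0.29, adjusted p = 0.01) and in the average (0.26, adjusted p = 0.0122).

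Ldha encodes the subunit of lactate dehydrogenase that favours reduction of pyruvate to lactate. It was at 76.8 and 70.2 RPM in KO1 and at 91.5 and 94.0 RPM in KO2, against 58.5 and 54.6 RPM in WT. All 4 knockout libraries were above both WT libraries, with KO2 above KO1. The log2 fold change in KO2 was 0.67 ± 0.14 (adjusted p = 0.000132) and passed under every alternative, while KO1 had 0.33 ± 0.14 (adjusted p = 0.109). The average of both lines, 0.50 ± 0.12 (adjusted p = 0.0013), passed under every alternative.

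**Figure D2:**
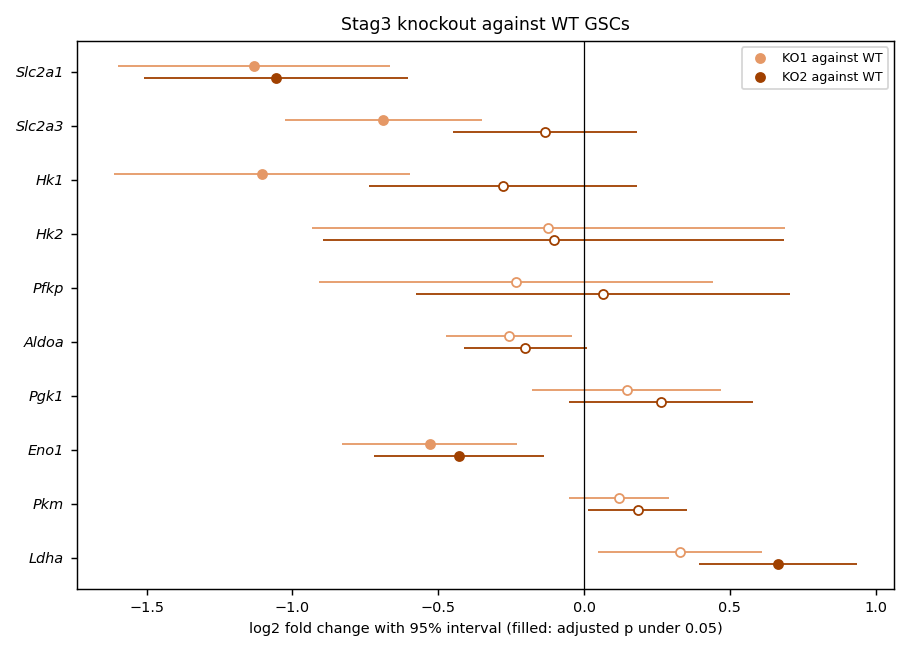
Log2 fold change (horizontal axis) of each of the 10 genes in KO1 and in KO2 GSCs against the same WT libraries, with its 95% interval for the single gene. Filled points passed an adjusted p of 0.05, which Slc2a1 and Eno1 did in both lines and Ldha in KO2 only, though the lines did not differ in Ldha past the threshold.

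By line, KO1 had 4 of the 10 genes past the threshold, all lower, against 13.7% of all genes tested, 6.24% higher and 7.41% lower, and 2 without KO1 replicate 2. KO2 had 3, with 1 higher and 2 lower, against 15.6% of all genes, 7.2% higher and 8.44% lower. Both comparisons share the WT libraries. In KO1 against KO2 directly, 0 of the 10 genes passed in edgeR and 0 in DESeq2, against 0.833% of all genes in edgeR (0.547% higher, 0.286% lower), and 3 had an unadjusted p under 0.05 in each tool. These 3 were Hk1 at -0.83 ± 0.26, Slc2a3 at -0.56 ± 0.17 and Ldha at -0.34 ± 0.14, with adjusted p of 0.147, 0.125 and 0.351. Their single-gene 95% intervals ran from -1.35 to -0.31, from -0.90 to -0.21 and from -0.60 to -0.07. Without KO2 replicate 2, Hk1 was lower in KO1 than in KO2 (-1.21, adjusted p = 0.0169).

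A ratio of 2 genes within a library does not depend on how libraries are scaled. The ratio of Ldha to Slc2a1 counts, chosen after their values were seen, was 4.93 and 5.03 in KO1 and 5.95 in both KO2 libraries, against 1.76 and 1.84 in WT. The knockout libraries were all above the WT libraries by more than the range within any GSC group. The ratio of Slc2a1 to Slc2a3 was 0.491 and 0.417 in KO1 and 0.317 and 0.335 in KO2, against 0.642 and 0.595 in WT, again without overlap. Pkm over Aldoa did not overlap between knockout and WT libraries either, while Hk2 over Hk1 and Pfkp over the enzyme gene Pfkm did. Ldha over the enzyme gene Ldhb was 2.72 and 2.19 in KO1 and 3.57 and 3.5 in KO2. In WT it was 3.07 and 2.11, so KO1 overlapped WT in this ratio. The summed level of the 10 genes was 710 ± 55.2 RPM in KO1 and 786 ± 1.38 RPM in KO2, against 746 ± 26.3 RPM in WT (SD, n = 2 each). The means of the knockout lines thus lay on either side of WT. The KO1 libraries, at 749 and 671 RPM, overlapped the WT libraries, at 765 and 727 RPM.

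Other genes of the pathway in the knockouts came from fixed lists. Of 24 listed further enzymes and transporters, 15 could be tested in GSCs, and with both lines averaged 1 was higher and 2 were lower. Eno3, the muscle enolase, was the one that rose, to 120 and 108 RPM in KO1 and 116 and 98.8 RPM in KO2, against 58.0 and 62.5 RPM in WT (log2 fold change 0.83 ± 0.11, adjusted p = 8.24e-09). Eno1 and Eno3 thus moved in opposite directions. The aldolase gene Aldoc fell by 0.63 ± 0.16 on the log2 scale (adjusted p = 0.00239), and the mutase gene Pgam1 by 0.27 ± 0.07 (adjusted p = 0.00304). Gapdh, which encodes the dehydrogenase of the pathway, was at 1029 and 1001 RPM in KO1 and 1282 and 1231 RPM in KO2, against 1246 and 1165 RPM in WT.

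Genes of pyruvate entry into mitochondria changed in both directions. Of 13 tested, 2 were higher and 1 was lower in the average of both lines. The 2 subunits of the mitochondrial pyruvate carrier differed in sign, with Mpc1 at 0.46 ± 0.13 (adjusted p = 0.00608) and Mpc2 at -0.30 ± 0.06 (adjusted p = 0.000147). Mpc1 lost its call without WT replicate 1 (0.38, adjusted p = 0.0749) or KO2 replicate 2 (0.37, adjusted p = 0.0792). Pdpr, a regulatory subunit of pyruvate dehydrogenase phosphatase, rose by 0.34 ± 0.10, a call lost without WT replicate 2 (0.33, adjusted p = 0.0501) or KO2 replicate 2 (0.31, adjusted p = 0.0779). Pdk1, a kinase that inhibits pyruvate dehydrogenase and is a known HIF target, was at -0.19 ± 0.10 (adjusted p = 0.205).

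Among 24 listed genes of the HIF pathway and HIF targets outside glycolysis, 21 were tested, and 0 were higher and 7 lower with both lines averaged, where 10.6% of all genes tested were lower. KO1 had 0 higher and 6 lower, against 7.41% of all genes lower, and KO2 0 higher and 7 lower, against 8.44%. The median log2 fold change of the list was -0.21, against 0.00 for all genes. In the averaged comparison DESeq2 gave 4 lower, and library totals in place of TMM gave 1 higher and 5 lower. KO1 had 3 lower without KO1 replicate 1, and KO2 had 4 lower without KO2 replicate 2. Ndrg1, a stress-response gene, was at 8.53 and 10.8 RPM in KO1 and 11.3 and 11.1 RPM in KO2, against 29.4 and 19.7 RPM in WT. Bnip3, which marks mitochondria for removal, was at 25.6 and 24.8 RPM in KO1 and 21.1 and 21.6 RPM in KO2, against 48.5 and 54.8 RPM in WT. Every knockout library was below both WT libraries in both genes. The averaged log2 fold changes were -1.28 ± 0.23 for Ndrg1 (adjusted p = 6.02e-06) and -1.20 ± 0.15 for Bnip3 (adjusted p = 7.53e-10). Egln1, the prolyl hydroxylase that marks HIF for degradation and is itself a HIF target, fell by 0.70 ± 0.09 (adjusted p = 2.33e-09), and Mxi1, a MYC antagonist, by 0.74 ± 0.14 (adjusted p = 1.75e-05). In single lines, the Ndrg1 call in KO2 was lost without WT replicate 1 (-0.85, adjusted p = 0.0584), and the Mxi1 call in KO1 without WT replicate 2 (-0.36, adjusted p = 0.216) or KO1 replicate 1 (-0.47, adjusted p = 0.156). The HIF subunit gene Hif1a had 0.27 ± 0.13 (adjusted p = 0.12). HIF activity is set mainly by protein stability, which RNA does not show.

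**Figure D3:**
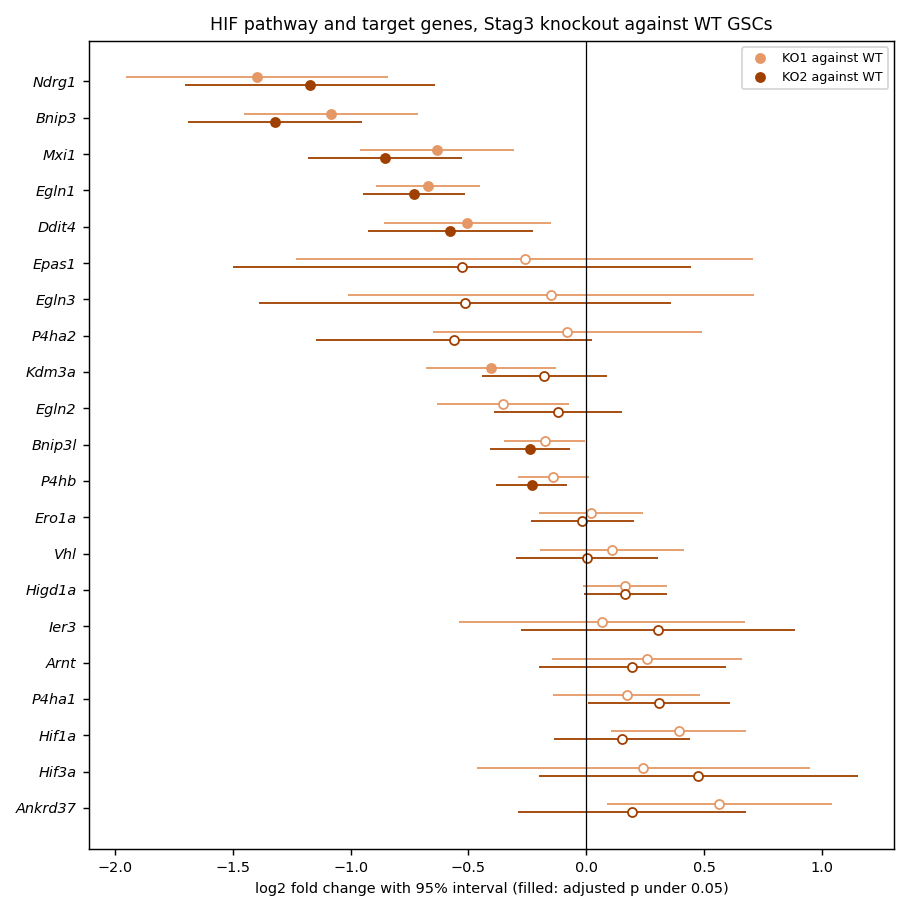
Log2 fold change (horizontal axis) with the single-gene 95% interval of the 21 tested genes of the HIF pathway and of HIF targets, in KO1 and in KO2 GSCs against the same WT libraries, ordered by the mean of both lines. Filled points passed an adjusted p of 0.05, and all filled points lie below 0.

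Of 11 tested regulators of the pathway, 1 was higher and 2 were lower. Txnip, a gene induced by glucose whose protein restrains glucose uptake, was at 96.2 and 103 RPM in KO1 and 108 and 116 RPM in KO2, against 199 and 183 RPM in WT, a fall of 0.91 ± 0.09 on the log2 scale (adjusted p = 2.9e-14). Mycn, a MYC family factor expressed in spermatogonia, fell by 0.66 ± 0.12 (adjusted p = 5.19e-06), a value of -0.37 without WT replicate 2 (adjusted p = 0.0442). The higher regulator was Myc, which averaged too few reads for the rule on naming genes and was named after its values were seen. The same holds for Pfkfb3, Ldhc and Slc2a5 in the knockouts. Myc was at 11.5 and 7.33 RPM in KO1 and 11.9 and 15.3 RPM in KO2, against 1.63 and 1.74 RPM in WT, a rise of 2.67 ± 0.42 (adjusted p = 3.11e-07). All 4 knockout libraries lay above both WT libraries in Myc. Of the 5 tested genes that set fructose 2,6-bisphosphate, 1 was lower, Pfkfb3, with a log2 fold change of -2.57 ± 0.55 (adjusted p = 0.000183), or -5.16 without KO1 replicate 1. Pfkfb3 was at 2.35 and 0 RPM in KO1 and 1.35 and 0.555 RPM in KO2, against 4.90 and 7.97 RPM in WT. The size of its fall thus rests on few reads. Of the 4 tested genes listed as testis or sperm forms, 1 was lower in the average, the lactate dehydrogenase gene Ldhc. By line, Ldhc had -2.53 ± 0.52 in KO1 (edgeR, adjusted p = 0.000179) and -0.52 ± 0.40 in KO2 (adjusted p = 0.419). The KO2 libraries, at 7.29 and 6.94 RPM, overlapped the WT libraries, at 13.1 and 6.73 RPM. In KO1 against KO2 directly, 1 of these 4 listed genes passed as higher and 1 as lower. The 4 include Slc2a5, which encodes a transporter and not an enzyme. Slc2a5 was at 4.12 and 5.94 RPM in KO1 and 0.54 and 0 RPM in KO2, against 4.36 and 3.24 RPM in WT. In the KO2 libraries 3 counts are 0.81 and 0.832 RPM, so its KO2 level is near the floor. In the average of both lines Ldhc had -1.52 ± 0.39 (adjusted p = 0.00199). The Ldhc value was -0.96 without WT replicate 1 (adjusted p = 0.222) and -2.63 without KO1 replicate 1.

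In testis germ cells 1 member passed the threshold between E17 and E16, and members changed in both directions between P7 and E17. That 1 of 10 in E17 against E16 stands against 6.6% of 14776 genes tested, 1.64% higher and 4.96% lower. Eno1 was at 58.9 and 52.3 RPM at E17 and at 62.1 and 81.0 RPM at E16. Both E17 libraries were below both E16 libraries. Eno1 fell by 0.72 ± 0.20 on the log2 scale (edgeR, adjusted p = 0.0442). The call was lost in DESeq2 (-0.69, adjusted p = 0.0779), with RLE scaling (-0.70, adjusted p = 0.0531) and with library totals in place of TMM (-0.37, adjusted p = 0.216). It was also lost without E16 replicate 2 (-0.44), E17 replicate 1 (-0.80) or E17 replicate 2 (-0.63), with adjusted p of 0.181 to 0.338. The 2 E16 libraries differed from each other more than those of any other group, and their Slc2a1 levels were 12.4 and 28.9 RPM. The number of members that passed changed with the library left out, and so did the number over all genes tested.

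Several members had higher RPM at E17 than at E16 and a smaller fitted change, since TMM scaling raises the E16 libraries relative to the E17 libraries. Pfkp was at 73.4 and 86.3 RPM at E17 and 39.3 and 53.9 RPM at E16, with a fitted log2 fold change of 0.42 ± 0.22 (adjusted p = 0.271). Slc2a3 was at 155 and 164 RPM at E17 and 102 and 92.6 RPM at E16, with a fitted change of 0.38 ± 0.15 (adjusted p = 0.156), and Aldoa at 286 and 265 RPM and at 171 and 159 RPM, with 0.40 ± 0.13 (adjusted p = 0.0738). With library totals these 3 passed the threshold, at 0.77, 0.72 and 0.74, while the median of all genes moved to 0.34. Of 21 other enzymes and transporters tested, 1 was higher and 0 were lower at E17. That gene was Eno3, at 127 and 157 RPM at E17 and 52.7 and 59.1 RPM at E16 (0.999 ± 0.19, adjusted p = 0.00433), a call lost without E17 replicate 2 (0.84, adjusted p = 0.121). Of 22 genes of the HIF list, 2 were higher and 1 was lower, and Egln1 was at 34.1 and 23.0 RPM at E17 and 12.9 and 8.45 RPM at E16 (1.11 ± 0.30, adjusted p = 0.0368). The Egln1 call was lost without E16 replicate 2 (0.86, adjusted p = 0.0905) or E17 replicate 1 (0.80, adjusted p = 0.387).

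Between P7 and E17, members changed in both directions. In P7 against E17, 8 of the 10 genes passed the threshold, 3 higher and 5 lower, in a comparison in which 67.9% of all genes passed, 30.2% higher and 37.8% lower. The members' share is close to that background. The median log2 fold change was -0.50 for the 10 genes and -0.13 for all genes tested. All 10 genes had P7 RPM outside the range of the E17 libraries, and these included Aldoa, whose fitted log2 fold change was -0.02. The share of all genes that did so was not counted, so this is not a result about the members. The P7 libraries were counted on another gene list and have no mitochondrial counts, so stage and the making of the tables cannot be told apart.

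Scaling by ERCC spike-ins, synthetic RNAs added to the samples, turned several directions in vivo. These spike-ins took 1.22% and 1.52% of counts at E16, 0.194% and 0.231% at E17 and 5.85% and 4.69% at P7, and 2.8% to 3.41% in GSCs, and how they were added is not given in the sources used here. With their totals as size factors, all 10 genes were lower at P7 than at E17 and all 10 higher at E17 than at E16, while the median of all genes was -4.81 and 3.02. The values below are relative to the bulk of genes in a library.

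The transporters moved in opposite directions. Slc2a1 was at 52.6 and 57.8 RPM at P7, against 28.3 and 19.4 RPM at E17, a log2 fold change of 1.37 ± 0.32 (adjusted p = 0.00162). Slc2a3 was at 28.9 and 29.4 RPM at P7, against 155 and 164 RPM at E17, a change of -2.29 ± 0.17 (adjusted p = 3.09e-08). The ratio of Slc2a1 to Slc2a3 counts within a library was 1.82 and 1.97 at P7, against 0.183 and 0.118 at E17, and the stages did not overlap. The hexokinases also changed in opposite directions. Hk2 was at 30.9 and 29.7 RPM at P7, against 11.0 and 8.37 RPM at E17 (1.80 ± 0.36, adjusted p = 0.000501). Hk1 was at 37.5 and 35.5 RPM at P7, against 61.3 and 63.3 RPM at E17 (-0.61 ± 0.20, adjusted p = 0.0127). The Hk1 call was lost when any 1 library of E17 or P7 was left out, with values of -0.56 to -0.61 and adjusted p of 0.0651 to 0.107. Counts of Hk2 were 0.825 and 0.835 of those of Hk1 at P7, against 0.179 and 0.132 at E17.

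**Figure D4:**
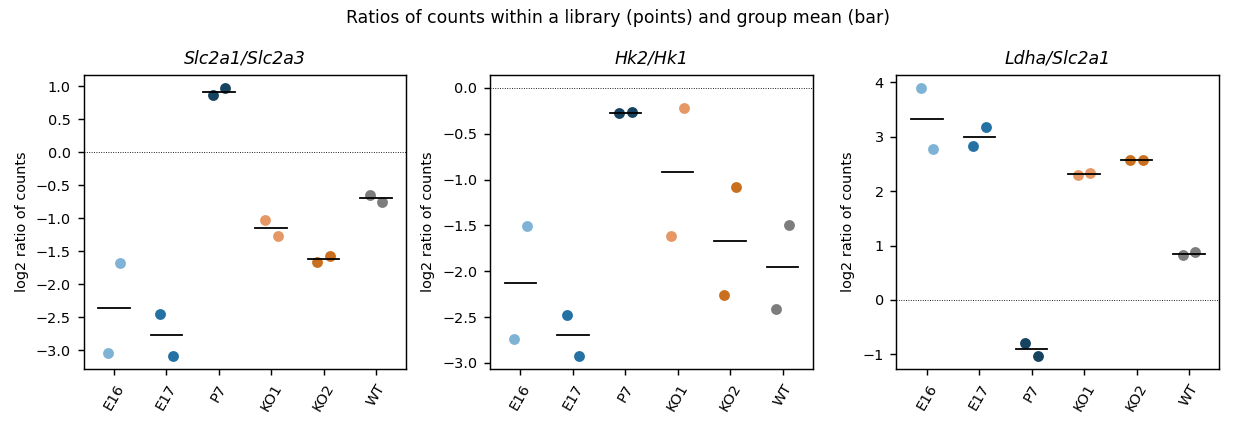
Log2 ratio of the counts of 2 genes within each library (vertical axis) for Slc2a1 over Slc2a3, Hk2 over Hk1 and Ldha over Slc2a1, by group, with bars at the mean of 2 libraries. The dotted line marks equal counts, and the P7 points of Slc2a1 over Slc2a3, at 0.86 and 0.98, are the ones above it in that panel.

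Ldha changed most among the members. It was at 30.3 and 28.4 RPM at P7, against 201 and 176 RPM at E17, a log2 fold change of -2.52 ± 0.17 (adjusted p = 1.1e-08). Its neighbour on chromosome 7, Ldhc, which encodes the lactate dehydrogenase of the testis, was at 11.2 and 12.1 RPM at P7, against 113 and 99.95 RPM at E17 (-3.03 ± 0.21, adjusted p = 1.97e-08). Both fell at P7. Pfkp was at 36.2 and 37.1 RPM at P7, against 73.4 and 86.3 RPM at E17 (-0.97 ± 0.22, adjusted p = 0.00112). Eno1 was at 118 and 105 RPM at P7, against 58.9 and 52.3 RPM at E17 (1.16 ± 0.19, adjusted p = 0.000104). Pkm fell by 0.42 ± 0.11 on the log2 scale (adjusted p = 0.00367), and lost its call without E17 replicate 2 (-0.34, adjusted p = 0.0931) or P7 replicate 1 (-0.32, adjusted p = 0.0746). Aldoa had -0.02 ± 0.12, with a 95% interval from -0.28 to 0.25, and Pgk1 had -0.58 ± 0.26 (adjusted p = 0.0556).

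Of 21 further enzymes and transporters tested, 3 were higher and 13 lower at P7 than at E17, where 67.9% of all genes passed, 30.2% higher and 37.8% lower. Their median log2 fold change was -1.21. Eno3 was at 19.1 and 19.5 RPM at P7, against 127 and 157 RPM at E17 (-2.72 ± 0.20, adjusted p = 3.85e-08). Eno1 and Eno3 were again opposite in sign. Gapdh was at 667 and 747 RPM at P7, against 552 and 557 RPM at E17 (0.51 ± 0.13, adjusted p = 0.00273). Of the 5 tested genes that set fructose 2,6-bisphosphate, 1 was higher and 2 were lower. Pfkfb4 fell to 0.987 and 0 RPM at P7, against 30.1 and 29.8 RPM at E17, and Pfkfb2 to 14.5 and 16.4 RPM, against 54.3 and 49.7 RPM.

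Of 13 tested genes that govern entry of pyruvate into mitochondria, 4 were higher and 1 was lower at P7. Pdk1 was at 143 and 145 RPM at P7, against 24.9 and 27.2 RPM at E17 (2.62 ± 0.20, adjusted p = 3.98e-08), and Mpc2 at 864 and 790.0 RPM, against 219 and 214 RPM (2.09 ± 0.12, adjusted p = 2.62e-09). Of 22 tested genes of the HIF list, 8 were higher and 7 lower. Vhl, the substrate receptor for HIF degradation, rose by 2.44 ± 0.25 (adjusted p = 1.09e-06), and P4ha2, a collagen prolyl hydroxylase, fell by 2.73 ± 0.25 (adjusted p = 2.63e-07). Of 13 regulators tested, 4 were higher and 5 lower. Mycn was at 84.5 and 72.3 RPM at P7, against 2.89 and 3.66 RPM at E17 (4.71 ± 0.36, adjusted p = 4.78e-08).

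**Figure D5:**
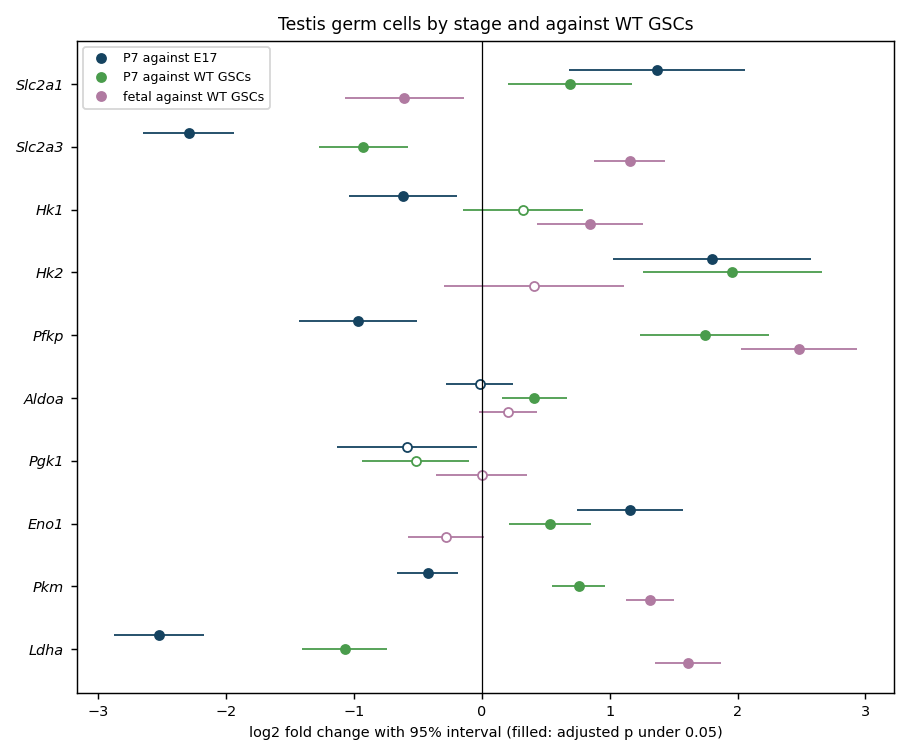
Log2 fold change (horizontal axis) of the 10 genes with single-gene 95% intervals in P7 against E17 germ cells, in P7 germ cells against WT GSCs and in fetal germ cells (mean of E16 and E17) against WT GSCs. Filled points passed an adjusted p of 0.05, and Ldha had -2.52, -1.07 and 1.61 in these comparisons.

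The WT GSCs differed from germ cells of both ages. The 2 kinds of sample also carried different transgenes and differed in the summed markers of several other testis cells, and the P7 tables used another gene list. The part of culture in the differences below cannot be told apart from these. In P7 germ cells against WT GSCs, 8 of the 10 genes passed the threshold, 6 higher and 2 lower, against 31.0% of 15827 genes tested, 16.2% higher and 14.8% lower. In fetal germ cells (mean of E16 and E17) against the same WT GSCs, 6 passed, 5 higher and 1 lower, against 74.2% of all genes, 42.0% higher and 32.3% lower. The median log2 fold change of the 10 genes was 0.47 at P7 and 0.63 in fetal cells, and that of all genes tested was 0.04 and 0.23. With RLE scaling the all-gene median in fetal cells moved to 0.42. At P7 fewer of the 10 genes passed when any 1 library of P7 or WT was left out, and fewer of all genes tested did as well. With ERCC totals as size factors, 2 were higher and 3 lower at P7, and all 10 were higher in fetal cells, where the all-gene median was 2.87. The summed level of the 10 genes was 1453 ± 19.9 RPM at E16, 1687 ± 12.2 RPM at E17 and 1126 ± 30.9 RPM at P7, against 746 ± 26.3 RPM in WT GSCs (SD, n = 2 each). Pkm held the largest part of each sum, with means of 766, 779 and 522 RPM, against 283 RPM in WT GSCs. The sums therefore do not describe the members one by one.

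Pfkp, the platelet-type phosphofructokinase, was higher in germ cells of both ages than in culture. It was at 36.2 and 37.1 RPM at P7 and at 39.3 to 86.3 RPM in the 4 fetal libraries, against 8.98 and 11.0 RPM in WT GSCs. Its log2 fold change was 1.74 ± 0.25 at P7 (adjusted p = 8.79e-07) and 2.48 ± 0.22 in fetal cells (adjusted p = 3.07e-12). Pfkp overlaps Pitrm1, which had 64.1 to 114 RPM, and whether the counting used strand is not given in the sources used here. Hk2 was at 30.9 and 29.7 RPM at P7, against 5.45 and 8.72 RPM in WT GSCs (1.96 ± 0.35, adjusted p = 2.86e-05), and fetal cells had 0.41 ± 0.35 (adjusted p = 0.288). Pkm was at 499 and 545 RPM at P7 and at 749 to 810 RPM in fetal cells, against 301 and 265 RPM in WT GSCs, with changes of 0.76 ± 0.10 (adjusted p = 2.92e-07) and 1.31 ± 0.09 (adjusted p = 3.96e-15).

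Slc2a3 and Ldha lay on either side of the culture level. Slc2a3 changed by -0.93 ± 0.17 at P7 (adjusted p = 5.52e-05) and by 1.16 ± 0.14 in fetal cells (adjusted p = 2.24e-09) relative to WT GSCs. Ldha changed by -1.07 ± 0.16 at P7 (adjusted p = 2.89e-06) and by 1.61 ± 0.13 in fetal cells (adjusted p = 1.04e-13). Slc2a1 had the opposite signs, with 0.69 ± 0.24 at P7 (adjusted p = 0.025) and -0.60 ± 0.23 in fetal cells (adjusted p = 0.0175). The P7 call of Slc2a1 was lost when any 1 library of P7 or WT was left out (0.58 to 0.77, adjusted p of 0.0644 to 0.184). Its fetal call was lost without WT replicate 1 (-0.53), E16 replicate 1 (-0.40) or E17 replicate 2 (-0.50), with adjusted p of 0.0582 to 0.101, and with RLE scaling (-0.41, adjusted p = 0.102), and the value was -1.08 without E16 replicate 2.

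Hk1 was higher in fetal cells than in WT GSCs (0.84 ± 0.20, adjusted p = 0.000398), and its P7 value was 0.32 ± 0.23 (adjusted p = 0.313). Aldoa at P7 had 0.41 ± 0.12 (adjusted p = 0.0106), a call lost without WT replicate 1 (0.38, adjusted p = 0.0786) or P7 replicate 2 (0.33, adjusted p = 0.136). Eno1 at P7 had 0.54 ± 0.16 (adjusted p = 0.00867), a call lost without WT replicate 1 (0.53), WT replicate 2 (0.52) or P7 replicate 1 (0.42), with adjusted p of 0.0547 to 0.145. Pgk1 had 0.00 ± 0.18 in fetal cells and -0.52 ± 0.21 at P7 (adjusted p = 0.0525). Gapdh was lower than in WT GSCs at both ages, with -0.90 ± 0.10 at P7 (adjusted p = 7.67e-09) and -1.30 ± 0.09 in fetal cells (adjusted p = 4.95e-16), the second of which turned to 1.34 with ERCC totals.

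Of 21 other enzymes and transporters, 0 were higher and 6 lower at P7 relative to WT GSCs, where 31.0% of all genes passed. In fetal cells 9 were higher and 5 lower, where 74.2% of all genes passed. Slc16a1, which encodes the lactate and pyruvate transporter MCT1, was at 17.9 to 30.6 RPM in fetal cells, against 98.6 and 117 RPM in WT GSCs (-2.44 ± 0.15, adjusted p = 1.47e-16). Tpi1, triose phosphate isomerase, was at 15.1 and 10.2 RPM at P7, against 49.3 and 39.4 RPM in WT GSCs (-1.93 ± 0.24, adjusted p = 8.51e-08). Pdk1 was at 15.4 to 27.2 RPM in fetal cells, against 112 and 108 RPM in WT GSCs (-2.53 ± 0.14, adjusted p = 8.34e-18), and had 0.26 ± 0.14 at P7 (adjusted p = 0.147).

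Over the 6 groups, the order of mean levels differed from gene to gene. Slc2a1, Hk2 and Eno1 were highest at P7, Ldha at E16, and the other 6 at E17. Slc2a1 and Eno1 were lowest in KO1, as were Hk1, Pfkp and Aldoa. Neighbours in the order whose libraries overlapped included E17, E16, KO2 and KO1 for Slc2a1, all groups below P7 for Hk2, and E16 and E17 for Ldha and Pkm, while no neighbours overlapped for Slc2a3. The range of group means was widest for Pfkp, at 9.04-fold, then Ldha at 6.51-fold and Slc2a3 at 5.47-fold, and narrowest for Pgk1, at 1.67-fold. Among 9394 candidate genes, those whose group means ran most like Pfkp over the 6 groups were Zfp945, Zkscan6 and Cacna1d (Pearson r of 0.999, 0.997 and 0.996). For Ldha they were Ndufb1, Akt2 and Socs5 (0.999, 0.998 and 0.997), and for Slc2a3 Agbl2, Ppm1e and Polr2f (0.994, 0.992 and 0.991). These correlations rest on 6 points that share libraries and describe likeness in pattern only.

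Reads of close copies could affect some members. Near-identical 3′ ends were found in 2 other genes for Aldoa, 4 for Eno1, 1 for Pkm and 6 for Ldha, and in 0 for the other members. The copies that are in the tables had at most 0.618 RPM in any library. Reads that were placed on the parent gene from a copy, or dropped as ambiguous, cannot be told from the counts.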

How the data were processed

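RNA was measured by SC3-seq in 12 mouse libraries, 2 in each of 6 groups. Per the labels' protocols, 1 ng of total RNA was reverse transcribed and amplified. The submitters' processing notes name Salmon 1.4.0, HTSeq 0.9.1, TopHat2 2.1.1 and cutadapt 1.18 and the build GRCm38.p6. Their roles and whether counting used strand are not stated there. The authors deposited 1 table per library with whole-number counts per gene, which were used for every test. A second deposited column holds the authors' signal, their counts per 1000000 reads, which served only as a check of the counts. Replicate numbers follow the titles, which for WT GSCs are opposite to the file names.

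The gene list holds 35652 genes for GSCs, E16 and E17 and 34896 for P7, matched by Entrez ID, with 31675 counted in every library. Spike-in and transgene rows were left out of tests and totals. RPM used totals without mitochondrial genes, which the P7 tables leave blank. A count of 0 allows up to 3 counts, or 0.748 to 1.73 RPM per library, for counting error only.

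edgeR 4.0.16 in R 4.3.3 (quasi-likelihood test, TMM, filterByExpr, Benjamini-Hochberg threshold 0.05) gave the log2 fold changes and SE. One fit held the 6 GSC libraries, one the 6 in vivo libraries, and one all 12 for germ cells against WT GSCs. The fit of the 6 GSC libraries and that of the 6 in vivo libraries were tried on simulated data with 200 changed genes in a single group. The fit of all 12 was not tried in this way. Far more genes passed in P7 against E17 and in fetal cells against WT GSCs, so the simulations do not cover such comparisons. Alternatives were DESeq2 1.42.0, RLE scaling, ERCC totals, no filter, other sets of libraries in the fit, mitochondrial genes left out, the replicate number as a block and each library left out. Library totals without TMM were added after seeing the data. Copies were searched with the last 400 bases of transcripts at 95% identity over at least 100 bases, and motifs in the 250 bases before RefSeq starts.

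The members and lists were chosen with earlier results of these data known. All 10 members are described. From the lists, named genes were those past the threshold with at least 20 RPM in the higher group, up to the 4 largest changes per list and comparison, with Hif1a, Gapdh and Pdk1 in addition. For the 3 members with the widest range over the groups, the 3 genes most alike in pattern are named.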

Additional observations from a re-analysis of the deposited data

Results flagged for a closer look

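Gapdh differed between the knockout lines when these were compared directly. It was at 1029 and 1001 RPM in KO1 and at 1282 and 1231 RPM in KO2, with 1246 and 1165 RPM in WT GSCs, and KO1 was lower than KO2 by -0.31 ± 0.07 on the log2 scale (edgeR quasi-likelihood test, adjusted p = 0.00602). Against WT, KO1 had -0.30 ± 0.07 (adjusted p = 0.00104) and KO2 0.01 ± 0.07 (adjusted p = 0.944). The difference between the lines lost its call when any 1 of the 4 knockout libraries was left out (-0.28 to -0.34, adjusted p of 0.105 to 0.519) and when all 12 libraries were fitted together (-0.33, adjusted p = 0.334). The KO1 call against WT was lost without KO1 replicate 2 (-0.27, adjusted p = 0.0542).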

How the results depend on the processing

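Apart from ERCC scaling, 771 of 880 refitted member values kept their direction and their side of the threshold, 48 lost the call, 28 gained one and 33 changed sign. The sign changes were in values that had not passed. Slc2a1 in either knockout line and Ldha in KO2 passed in every refit.

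DESeq2 called 1083 genes in the average of both knockout lines, 679 in KO1 and 864 in KO2 against WT, and 35 between KO1 and KO2, against 2286, 1623, 1860 and 99 in edgeR. It called 3 of the 10 members in the knockout average and 0 in E17 against E16, as did RLE scaling in the second. With all 12 libraries in one fit these counts over all genes were 1415, 858, 1006 and 39, and E17 against E16 had 1763 genes and 3 members, against 975 and 1. That fit also changed the sign of Gapdh in KO2 (-0.0055) and of Aldoa in P7 against E17 (0.0038). Library totals without TMM gave 1540 genes and 3 members in E17 against E16, with 1294 higher and 246 lower in place of 242 and 733, and turned Gapdh (0.093), Pkm (0.025) and Slc2a1 (0.15) there and Hif1a in P7 against E17 (-0.028). They gave 1292 higher and 1051 lower in the knockout average, in place of 1027 and 1259, and 3215 higher and 1752 lower in P7 against WT, in place of 2565 and 2340. No filter turned Aldoa in P7 against E17 (0.044) and Pgk1 in fetal cells against WT (-0.019), which was also turned with only the groups compared (-0.0024).

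With ERCC totals, 1447 genes passed in the knockout average (569 higher, 878 lower), 1146 in KO1 (297 higher, 849 lower) and 1191 in KO2 (696 higher, 495 lower), and 1 member passed between KO1 and KO2. E17 against E16 had 14508 genes and 10 members, and turned Eno1 (2.34), Gapdh (2.79), Hk2 (2.55), Ldha (2.68), Pdha1 (2.30), Pkm (2.70) and Slc2a1 (2.93). P7 against E17 turned Eno1 (-3.54), Foxk2 (-2.92), Gapdh (-4.17), Hif1a (-4.56), Hk2 (-2.89), Mpc2 (-2.61), Pdk1 (-2.05), Slc2a1 (-3.32) and Vhl (-2.25). P7 against WT had 5 members and turned Aldoa (-0.14), Eno1 (-0.028), Hk1 (-0.23), Mpc1 (-0.081) and Pdk1 (-0.29), with 909 genes higher and 4709 lower. Fetal cells against WT had 10 members and turned Eno1 (2.34), Gapdh (1.34), Mpc2 (0.96), Pdha2 (0.57), Pdk1 (0.090), Slc16a1 (0.19) and Slc2a1 (2.0). These follow from the ERCC shares of counts given with the results, and the cause of the other changes was not tested.

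Leaving out 1 library at a time gave 3 to 5 members in the knockout average, with Hk2 from -0.39 to 0.23 and Pfkp from -0.20 to 0.033. In KO1 it gave 863 to 1779 genes and 2 to 5 members, with Hk2 from -0.55 to 0.24 and Pkm from -0.0047 to 0.23. In KO2 it gave 905 to 1869 genes, with Gapdh from -0.074 to 0.072, Hk1 from -0.82 to 0.093, Hk2 from -0.38 to 0.24 and Pfkp from -0.057 to 0.18. Between KO1 and KO2 it gave 41 to 45 genes and 0 to 1 members, with Aldoa from -0.33 to 0.16, Eno1 from -0.21 to 0.0068, Hk2 from -0.45 to 0.34 and Slc2a1 from -0.17 to 0.0033. In E17 against E16 it gave 232 to 3644 genes and 0 to 4 members, with Hk2 from -0.94 to 0.094, Pgk1 from -0.25 to 0.60 and Slc2a1 from -0.68 to 0.65. Aldoa in P7 against E17 ran from -0.046 to 0.064. P7 against WT had 3200 to 3685 genes and 5 to 6 members, and in fetal cells against WT Hif1a ran from -0.23 to 0.27 and Pgk1 from -0.30 to 0.14. A group left with 1 library was assumed to vary like the others.

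Groups share replicate numbers, but the deviations of same-numbered libraries correlated at -0.149 to 0.086, so the numbers were not taken to pair libraries. With the replicate number as a block, 6 members passed in the knockout average, 9 in P7 against E17 and 9 in P7 against WT, against 5, 8 and 8 without it, E17 against E16 had 1314 genes, and Pgk1 in fetal cells against WT changed sign (-0.0015). The lowest count of a member was 15, for Hk2 in E16 replicate 1.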
